A study of Homo sapiens with 16 samples.

Results

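INTS13 binding sites were compared between 2 perturbations of HEK293T cells, depletion of the chromatin protein HDGF and growth without glucose, to see which sites and genes the perturbations had in common and which were seen in one of them. The members are all peaks on chromosomes 1 to 22, X and Y in the 2 INTS13 peak lists, 105994 after HDGF depletion and 15639 in starvation, together 121633 of the 327678 peaks in the 5 chromatin immunoprecipitation (ChIP-seq) lists of the study. A peak was counted as shared when it had at least 1 base in common with a peak of the other list, and as specific otherwise. HEK293T is an established human embryonic kidney line, and all groups came from this 1 line, labelled wild type. For the depletion, cells received a pool of small interfering RNAs against HDGF (siPOOL) for 72 h. For starvation, cells were kept in glucose-free medium for 24 h, and the labels name no control depletion for these cells. The control INTS13 group, used below as background, had a control depletion in place of the HDGF pool. INTS13 was precipitated with a Bethyl Laboratories antibody in the control and HDGF-depleted cells and with a Proteintech antibody in the starved cells, so for every difference given here treatment and antibody cannot be told apart. Each group has 2 labelled replicates but 1 deposited peak list, so there is no replicate error and no test between the conditions. Intervals are exact (Clopper-Pearson) 95% intervals of a share and cover counting error only.

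Integrator is a complex that associates with RNA polymerase II and cleaves nascent transcripts. It forms the 3′ ends of the small nuclear RNAs (snRNAs) of the spliceosome, and it ends transcription early at many protein-coding genes soon after initiation. INTS13 is a subunit of an Integrator module, with INTS10 and INTS14, that has been linked to recruitment of the complex by transcription factors. HDGF is a chromatin protein with a PWWP domain, related to PSIP1 and to the other HDGF-like proteins.

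The promoters of 6 of the strongest genes are shown as examples of sequence at gene-end peaks. MPI (mannose phosphate isomerase) and TM2D1 (a membrane protein) held a peak in both lists, LAMP1 (a major glycoprotein of the lysosomal membrane) and ATG3 (the enzyme that conjugates LC3-family proteins to lipid in autophagy) in the depletion list alone, and SMARCD2 (a SWI/SNF chromatin remodelling subunit) and TAF4 (a subunit of TFIID) in the starvation list alone. Each line gives the 250 bases before the start site, 5′ to 3′ on the gene's strand, from RefSeq promoters on GRCh38.p14. Capitals mark the GC box GGGCGG and the extended E-box GTCACGTG, each on either strand. The stretches are chr15:74889792-74890041 (plus strand) for MPI, chr1:61725142-61725391 (minus) for TM2D1, chr13:113296989-113297238 (plus) for LAMP1, chr3:112561963-112562212 (minus) for ATG3, chr17:63842686-63842935 (minus) for SMARCD2 and chr20:62065882-62066131 (minus) for TAF4.
MPI: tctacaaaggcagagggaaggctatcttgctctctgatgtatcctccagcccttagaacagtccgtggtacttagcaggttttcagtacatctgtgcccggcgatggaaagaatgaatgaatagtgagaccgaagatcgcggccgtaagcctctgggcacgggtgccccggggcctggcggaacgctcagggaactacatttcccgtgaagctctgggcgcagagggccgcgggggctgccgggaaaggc
TM2D1: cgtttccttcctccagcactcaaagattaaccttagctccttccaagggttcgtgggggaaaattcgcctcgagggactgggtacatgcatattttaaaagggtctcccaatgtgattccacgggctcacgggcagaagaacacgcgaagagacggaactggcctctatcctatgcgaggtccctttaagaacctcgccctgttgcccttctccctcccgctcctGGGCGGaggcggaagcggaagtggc
LAMP1: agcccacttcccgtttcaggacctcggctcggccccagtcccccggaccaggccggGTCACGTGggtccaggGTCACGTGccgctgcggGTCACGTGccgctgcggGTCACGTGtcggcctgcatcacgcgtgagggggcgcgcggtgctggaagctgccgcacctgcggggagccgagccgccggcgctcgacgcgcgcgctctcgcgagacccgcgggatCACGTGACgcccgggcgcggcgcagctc
ATG3: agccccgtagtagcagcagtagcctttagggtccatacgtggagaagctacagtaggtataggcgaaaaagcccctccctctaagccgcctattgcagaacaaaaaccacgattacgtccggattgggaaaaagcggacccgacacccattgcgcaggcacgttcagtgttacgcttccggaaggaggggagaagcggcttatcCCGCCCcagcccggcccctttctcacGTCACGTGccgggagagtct
SMARCD2: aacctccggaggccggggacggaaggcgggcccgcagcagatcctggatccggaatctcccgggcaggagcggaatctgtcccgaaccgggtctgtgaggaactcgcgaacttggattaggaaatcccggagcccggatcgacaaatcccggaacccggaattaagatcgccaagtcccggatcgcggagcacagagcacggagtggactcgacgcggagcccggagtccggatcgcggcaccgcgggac
TAF4: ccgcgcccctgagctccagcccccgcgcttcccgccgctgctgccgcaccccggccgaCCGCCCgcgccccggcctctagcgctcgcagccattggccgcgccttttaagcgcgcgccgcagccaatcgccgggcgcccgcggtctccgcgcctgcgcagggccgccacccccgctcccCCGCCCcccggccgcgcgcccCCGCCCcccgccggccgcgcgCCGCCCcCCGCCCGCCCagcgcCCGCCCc
The LAMP1 stretch held 5 matches to the extended E-box and no GC box, and all 250 bases lay inside the depletion peak. The ATG3 stretch held 1 extended E-box and 1 GC box, and 165 of its bases lay inside the depletion peak. TAF4 held 7 GC boxes and no extended E-box, with a G and C content of 86% against 76% for LAMP1, and 165 of its bases lay inside the starvation peak. SMARCD2 and MPI held neither motif. The stretches of other depletion-alone genes were not of one kind: that of PEPD held 6 GC boxes and no extended E-box, and that of WASHC2C 3 matches to each. The whole SMARCD2 stretch lay inside the starvation peak, and 250 and 169 bases of the MPI stretch lay inside the depletion and the starvation peak. For some other named genes the stretch lay wholly or mostly outside the peak. Those of KDM4A and MMS19 had 0 bases inside either peak, and that of MTREX had 7 inside the depletion peak.

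Of the 15639 starvation peaks, 8165 overlapped a depletion peak (52.2%, interval 51.4 to 53.0%) and 7474 were specific. Of the 105994 depletion peaks, 8621 overlapped a starvation peak (8.13%, interval 7.97 to 8.30%) and 97373 were specific. Merged, the lists covered 112124 separate intervals, of which 7277 held peaks of both. The difference between the shares goes with the lengths of the lists: with the depletion list cut to its strongest 15639 peaks the shares were 26.2% of the starvation and 25.1% of the depletion peaks. The shares were also lower under stricter rules, at 19.2% of the starvation peaks with at least 50% of both peaks in common and 31.1% with summits within 250 bp. The depth behind the lists is known only in part. The fold and p values correspond to a background of 4.20 reads at a summit after depletion. In starvation it was 15.2 before the authors' scaling and 7.41 after it. A single background value was fitted for each list, with a median error in −log10 p of 8.16e-06 after depletion and 1.18e-04 in starvation. Whether a background local to each site would change the lists was not tested. The lowest fold over background called was 2.50 after depletion and 2.43 in starvation. A peak that is not listed is therefore a peak that was not called, not a site without INTS13.

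Strong peaks were shared more often than weak ones. Among starvation peaks with a −log10 q below 3, 43.7% were shared. The share was 54.6% for values of 3 to 5, 74.1% for 5 to 10, 89.7% for 10 to 20 and 93.9% (138 of 147) at 20 or more. The depletion list showed the same order over a wider range, with 3.81% shared below 3, 32.4% at 5 to 10, 79.8% at 10 to 20 and 93.5% (115 of 123) at 20 or more. Among peaks with a summit within 1 kb of a gene end the strongest class was shared at 14 of 18 in starvation (77.8%, interval 52.4 to 93.6%) and 6 of 9 after depletion (66.7%, 29.9 to 92.5%). Over all strengths, such peaks were shared less often than peaks further away in starvation (44.2% against 53.0%). After depletion they were shared more often (12.9% against 7.90%). The depletion order held at 5 to 10 (38.5% against 32.1%) and was turned at 10 to 20 (77.1% of 35 against 80.1%). In both lists the 5 strongest shared sites lay outside genes, for example chr16:46388572-46392279 in starvation (23.2-fold over background, against 77.2-fold for the overlapping depletion peak) and chr1:125178888-125180754 (23.2-fold, against 74.9-fold). These folds stand far above the list medians given below. No filter for regions of unusually high signal was applied here, and whether such sites reflect INTS13 binding was not tested. Leaving out the shared peaks that overlapped a peak in each of the 4 other lists brought the shared part of the starvation list to 38.8%. This rule can remove shared peaks alone, so the direction of the change was fixed in advance. Within the lists shared peaks were stronger and wider than specific ones: the median fold was 3.07 against 2.89 in starvation and 3.85 against 3.27 after depletion, and the median width 425 bp against 308 bp and 496 bp against 293 bp. Over the 8165 shared starvation peaks, the −log10 q of the overlapping pairs had a Spearman rho of 0.31, a description across sites that share library and base composition.

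**Figure D1:**
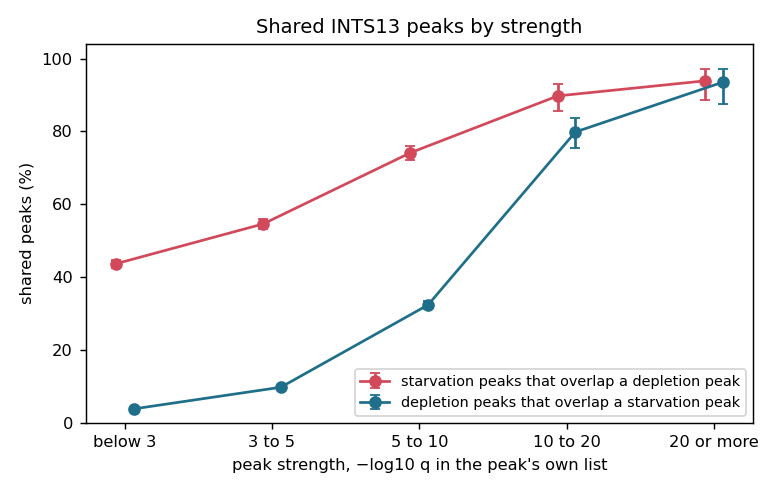
Share of INTS13 peaks (y axis, %) that overlap a peak of the other perturbation, by the −log10 q of the peak in its own list (x axis); points are shares of the starvation list (red) and of the depletion list (blue), bars are exact 95% intervals. Both curves rise, to 93.9% and 93.5% in the strongest class, and lie furthest apart among the weaker peaks.

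Sites specific to one perturbation differed in where they stood. Peaks specific to starvation lay close to depletion peaks: the median distance between summits was 1519 bp, 34.3% were within 1 kb and 80.8% within 5 kb. Peaks specific to depletion were far from any starvation peak, at a median of 38759 bp, with 19.9% within 5 kb. The list lengths differ, and a long list places a summit near any site more often than a short one. Of the depletion-specific peaks, 52.0% lay inside genes more than 1 kb from either end and 4.39% (interval 4.26 to 4.52%) within 1 kb of a gene end, here called boundary peaks. Of the starvation-specific peaks, 41.1% lay inside genes and 10.6% (9.88 to 11.3%) at a boundary, a larger share than among the shared starvation peaks (7.67%, 7.10 to 8.27%).

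The 2 lists also differed in their relation to transcription start sites. In starvation the summits gathered at the start of protein-coding genes: the number of gene and summit pairs per 100 bp bin was 12.9 times higher within 200 bp of the start than beyond 2 kb, and the fullest bin, 0 to 100 bp downstream, held 18.2 pairs per 1000 peaks. After HDGF depletion the ratio was 1.29 and the fullest bin held 2.0 pairs per 1000 peaks. In control cells, with the antibody used for the depletion, the ratio was 3.32. The strongest 15639 depletion peaks, cut to the length of the starvation list, gave 2.89, and depletion peaks at a −log10 q from 5 upwards gave 3.76, against 49.4 in starvation. The specific peaks stood further apart still, at 13.8 for starvation and 0.852 for depletion, so depletion-specific summits were no denser at start sites than beyond 2 kb. The depletion peaks that starvation shared had a ratio of 9.96. These depletion classes were drawn by overlap with the starvation list, which is itself dense at start sites. The split therefore raises the shared and lowers the specific ratio by construction. The HDGF list of starved cells, a ChIP of another protein in the same condition, had a ratio of 1.12, which does not bear on the INTS13 antibody. The part of the INTS13 antibody in the start-site signal of the starved cells was not tested.

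**Figure D2:**
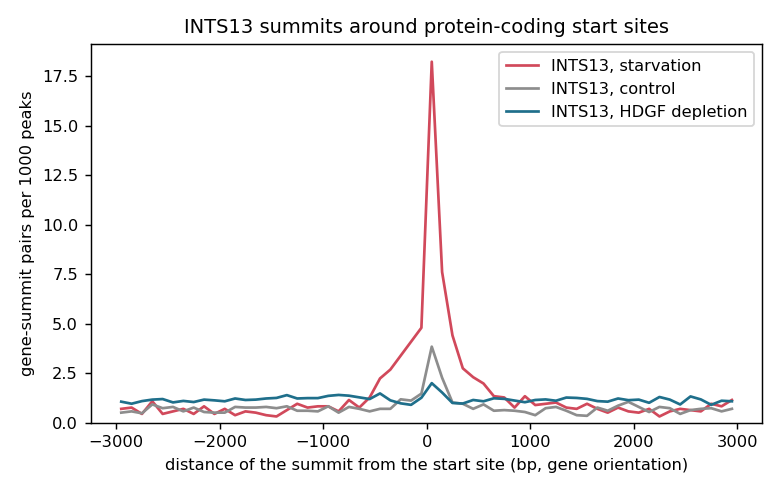
INTS13 summits around protein-coding start sites; the x axis is the distance from the start site in bp, in the direction of the gene, and the y axis the gene and summit pairs in each 100 bp bin per 1000 peaks of the list. The starvation line reaches 18.2 just downstream of the start, against 3.84 for the control and 2.0 for the depletion line, which is nearly flat.

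Chromosomes were unevenly represented in both lists. Chromosome 1 held 29.7% of the depletion peaks and 35.2% of the starvation peaks, with 10.3% of the protein-coding genes, and chromosome 13 held 7.17% and 18.6%, with 1.69% of the genes. The shared part of the starvation list was 77.5% on chromosome 9 and 69.7% on chromosome 1 but 23.2% on chromosome 7 and 19.0% on chromosome 2. Without chromosomes 1, 13, 22 and X, 35.5% of the starvation peaks and 3.68% of the depletion peaks were shared. Copy number in this line was not tested.

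Other lists of the study held the shared sites more often than the specific ones. The INTS13 list of control cells overlapped 59.9% of the shared starvation peaks and 19.6% of the starvation-specific ones, and 62.2% and 10.2% of the shared and specific depletion peaks. HDGF in starved cells overlapped 82.0% of the shared and 61.1% of the specific starvation peaks. It overlapped 82.4% of the shared but 16.8% of the specific depletion peaks. HDGF in control cells was at 23% of the starvation-specific and 22.7% of the depletion-specific peaks, so these classes hardly differed in overlap with HDGF before either perturbation.

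Of 20037 protein-coding genes, 3828 (19.1%) had a boundary peak after depletion and 1345 (6.71%) in starvation. Both lists marked 898 genes (4.48%), depletion alone 2930 (14.6%) and starvation alone 447 (2.23%). The order of the specific classes turned with the threshold: depletion alone and starvation alone held 258 and 294 genes at a −log10 q of at least 5 in both lists, 32 and 88 at 10, and 399 and 973 with lists of equal length. The 898 genes are 23.5% of the depletion genes and 66.8% of the starvation genes. At 595 of them (66.3%) the strongest peaks were at the same end of the gene, and at 388 (43.2%) they overlapped. A gene named below as in both lists is therefore not always 1 common site. Of the genes of both lists 51.0% had a boundary peak in the INTS13 control list (458 of 898, interval 47.7 to 54.3%), against 10.9% of the depletion-only and 12.1% of the starvation-only genes, and 4.77% of all protein-coding genes. Where RefSeq promoters give a start site, the strongest starvation summit lay within 1 kb of it at 77.1% of starvation-only genes (279 of 362), and the strongest depletion summit at 51.2% of depletion-only genes (1235 of 2411). Among other gene types, long non-coding RNA genes had 2466 marked after depletion and 605 in starvation, of 18303, and tRNA genes 50 and 5, of 443, with 2 in common.

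The 8 strongest genes of both lists had a boundary peak in control cells as well. KDM4A, a demethylase of histone H3 lysines, had a summit 437 bp downstream of its start after depletion (6.35-fold over background) and 395 bp in starvation (6.19-fold), and 5.54-fold in control cells. MPI, an enzyme of mannose metabolism, had 5.77-fold at 67 bp, 6.42-fold at 59 bp and 6.35-fold in control cells. TM2D1 had 8.27-fold, 5.50-fold and 7.84-fold in the same order. The highest starvation fold of the group was that of BLTP3B, a lipid transfer protein, at 8.21 against 5.58 after depletion and 5.81 in control cells. SRSF4, a splicing factor of the SR family, had 5.39-fold after depletion, 6.77-fold in starvation and 4.59-fold in control cells, and MMS19, a protein of iron-sulphur cluster assembly, 5.58-fold, 6.48-fold and 3.92-fold. The named genes of both lists also include LOC107987020 (6.54-fold and 6.19-fold) and SPANXB1 (8.47-fold and 6.65-fold), and SPANXB1 is uncertain because the SPANX genes are near-identical copies. Folds belong to their own list and are not levels that can be set against each other.

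The 8 strongest genes of depletion alone include HEXA and LAMP1, the 2 of them that belong to the lysosome list used below. HEXA (the alpha subunit of beta-hexosaminidase, which degrades gangliosides in the lysosome; chr15:72375535-72376743) had a 10.2-fold peak after depletion and LAMP1 9.04-fold. WASHC2A and WASHC2C, near-identical genes for a subunit of the WASH complex that sorts cargo on endosomes, had 8.66-fold and 5.77-fold, and reads of the 2 copies could be mistaken for each other. ATG3 had 6.35-fold, PEPD, a peptidase that splits proline dipeptides, 5.77-fold, and UBE2Q1, a ubiquitin-conjugating enzyme, 7.50-fold. MTREX, a helicase of the nuclear exosome, had 5.58-fold, the same value as NAGPA, an enzyme of the lysosomal mannose 6-phosphate tag, and stands in the group by alphabetical order alone. All but MTREX were marked by INTS13 in control cells too, between 4.05-fold (WASHC2C) and 9.46-fold (LAMP1). None of the 8 came into both lists when the window was widened to 2500 bp. The nearest starvation summit was between 32369 bp (WASHC2A) and 18520878 bp (LAMP1) away.

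The strongest genes of starvation alone were SMARCD2 (8.79-fold, summit 45 bp upstream of its start; chr17:63842496-63842955) and TAF4 (7.52-fold, 218 bp upstream; chr20:62065967-62066379), both general factors of chromatin or transcription. They were followed by RUFY1 (6.25-fold; an endosomal protein), C11orf68 (5.67-fold), IRAK1 (5.50-fold; a kinase of interleukin-1 receptor signalling), SMOC1 (5.50-fold; a secreted matricellular protein), SMURF2 (5.32-fold; a ubiquitin ligase of TGF-beta signalling) and DMWD (5.26-fold). RUFY1 is uncertain in this class: its starvation summit is at the annotated gene end but several kb upstream of the RefSeq promoter's start site, where the depletion list has a peak. C11orf68 was the single gene of the 8 that INTS13 also marked in control cells (4.19-fold). RUFY1, SMOC1, IRAK1 and DMWD had a depletion summit between 1452 and 2057 bp from a gene end, and joined both lists at 2500 bp. SMARCD2 and TAF4 did not, with the nearest depletion summit 14189 and 3617 bp away.

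Of 29 lysosomal genes, 11 (37.9%, against 19.1% of all protein-coding genes) had a depletion peak and 1 (3.45%, against 6.71%) a starvation peak. The depletion interval, 20.7 to 57.7%, lay above the share of all genes, and the starvation interval, 0.0873 to 17.8%, held it. With the depletion list cut to the length of the starvation list, 6 remained marked (20.7%, against 3.85% of all protein-coding genes), and the control list marked 5. The depletion members beside HEXA and LAMP1 were CTSA (cathepsin A; 5.20-fold), ATP6V0C and ATP6V0D1 (subunits of the proton pump that acidifies lysosomes; 5.00-fold and 4.04-fold), CLN3 (4.23-fold), ATP6AP1 (3.85-fold), GLA (alpha-galactosidase A; 3.85-fold), MCOLN1 (a lysosomal calcium channel; 3.85-fold) and PPT1 (3.46-fold). GLB1 (beta-galactosidase) was the gene of both lists, at 3.27-fold and 2.61-fold, in peaks that did not overlap. Of 32 autophagy genes, 9 (28.1%) had a depletion peak and 0 a starvation peak, and the intervals (13.7 to 46.7% and 0 to 10.9%) held the shares of all genes, so this list was near the background in both. At equal length 3 remained. ATG3 led the 9, followed by ATG4A (4.23-fold), ATG12 (4.04-fold) and ATG7 (3.27-fold).

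A search for the extended E-box was added after the promoters of the named genes, LAMP1 among them, had been read. GTCACGTG on either strand is a form of the E-box that is known as a site of TFEB and its relatives at lysosomal genes, and of USF factors. A start-site peak, with its summit within 1 kb of the start, was held by 2200 of 15842 promoters (13.9%) after depletion and by 942 (5.95%) in starvation. The motif was present in 544 of the 15842 promoters of 300 bases, 250 before and 50 after the start (3.43%). Among promoters with a start-site peak in the depletion list and none in the starvation list it was in 127 of 1652 (7.69%, interval 6.45 to 9.08%). With a depletion −log10 q of at least 5 it was in 24 of 110 (21.8%, 14.5 to 30.7%), and at 10 or more in 6 of 9. These counts include the promoters that led to the search. Without the promoters read beforehand it was in 122 of 1646 (7.41%, 6.19 to 8.79%), 19 of 105 (18.1%, 11.3 to 26.8%) and 1 of 4 at these thresholds. Promoters of starvation alone stayed near the share of all promoters, with 20 of 394 (5.08%, 3.13 to 7.73%), 5 of 100 and 0 of 11 at the same thresholds. Depletion promoters of at least 5 that starvation marked as well had 11 of 148 (7.43%, 3.77 to 12.9%), and at 10 or more 5 of 26 (19.2%, 6.55 to 39.4%). Among promoters not read beforehand the counts at 10 or more were 1 of 4 for depletion alone and 5 of 20 for shared promoters, which does not separate them. The control list, from the same antibody as the depletion, had 67 of 586 (11.4%, 8.97 to 14.3%) for all peaks and 33 of 213 (15.5%, 10.9 to 21.1%) at 5 or more. These control counts keep the promoters read beforehand, LAMP1 and ATG3 among them, and were not repeated without them. With this limit, the motif was above the share of all promoters in both lists made with the Bethyl antibody. A match is a description of these letters in the window, not a bound site.

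The 24 genes lie at 22 depletion peaks, since CTSA and NEURL2, and GNPTG and TSR3, each share one, and 17 of them had a start-site peak in control cells. They are named here after their values were seen. LAMP1 had 6 matches in its 300 bases, WASHC2C 3, ATG3 2, and NAGPA and PEPD 1 each, where a match on one strand may overlap a match on the other. CTSA and CLN3 are members of the lysosome list, as is LAMP1. The genes outside that list have various roles, among them SUMF1 (the activator of sulphatases; 5.39-fold), IGF2R (the mannose 6-phosphate receptor; 5.00-fold, 4 matches), GNPTG (a subunit of the enzyme that begins the mannose 6-phosphate tag; 4.43-fold), AP5Z1 (an adaptor of endosomes; 5.39-fold) and CLCN6 (an endosomal chloride transporter; 4.43-fold). Further ones were BAX (a pore-forming protein of apoptosis; 5.20-fold, 5 matches), RAD9A (a checkpoint protein; 4.62-fold, 5 matches), KAT5 (an acetyltransferase; 5.20-fold) and MAPK3 (the kinase ERK1; 4.43-fold).

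**Figure D3:**
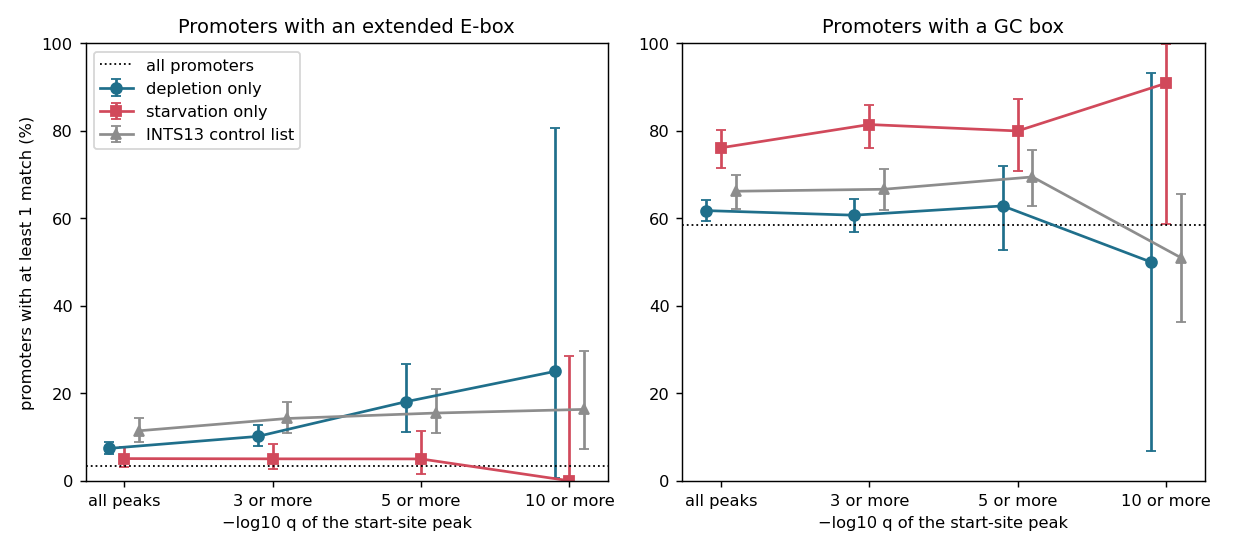
Share of promoters of 300 bases (y axis, %) with an extended E-box (left) or a GC box (right), by the lowest −log10 q allowed for the start-site peak (x axis), for promoters of depletion alone without those read before the search (blue), starvation alone (red) and the INTS13 control list (grey). No promoter was left out of the red and grey lines. Bars are exact 95% intervals and the dotted line is the share of all 15842 promoters. At 5 or more the depletion line on the left is at 18.1% and the starvation line at 5.00%, and on the right the order of these 2 lines is turned, with 62.9% against 80.0%; the last class holds 4 and 11 promoters.

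GC boxes were most frequent in starvation alone. GGGCGG was in 58.5% of all promoters, in 67.3% of those in both lists (interval 63.2 to 71.3%), in 61.9% of depletion alone (59.5 to 64.2%) and in 76.1% of starvation alone (71.6 to 80.3%). The median G and C content was 62.7% for all promoters, 66.0% for both lists, 62.7% for depletion alone and 70% for starvation alone, so the motif and the base composition moved together. The ETS core CCGGAA was in 28.6% of depletion-alone promoters (26.4 to 30.8%), above the 22.9% of all promoters, and in 38.2% at a −log10 q of at least 5 (29.1 to 47.9%). In starvation alone it was in 21.6% (17.6 to 26%). The NRF1 core GCATGCGC was in 7.12% of promoters of both lists (5.11 to 9.60%) and in 4.26% of all. CCAAT was in 31.0%, 37.3% and 30.5% of both, depletion alone and starvation alone, against 36.4% of all promoters, and TATAAA in 6.20%, 8.29% and 7.36%, against 9.63%. For the CRE TGACGTCA (2.37%, 2.78% and 1.52%, against 2.59%) and ACTACAA, part of the THAP11 and ZNF143 site (2.92%, 4.12% and 3.55%, against 3.14%), the interval of each class held the share of all promoters, except for ACTACAA in depletion alone (3.21 to 5.19%). The octamer ATGCAAAT was in 4 of 548 promoters of both lists, 31 of 1652 and 4 of 394.

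At the snRNA genes, whose 3′ ends Integrator forms, INTS13 was called after HDGF depletion wherever it was called in control cells. Of 21 snRNA genes transcribed by RNA polymerase II, 13 (61.9%) had a boundary peak after depletion, 12 in control cells and 3 (14.3%, interval 3.05 to 36.3%) in starvation, against 19.1%, 4.77% and 6.71% of protein-coding genes, and no gene had one in starvation alone. All 12 with a control peak had one after depletion, where the list held 105994 peaks against 31233 in control cells. Folds in control cells and after depletion differed in both directions. They were 5.13 and 3.08 at RNU5E-1 and 5.41 and 3.46 at RNU4-2, but 5.13 and 5.97 at RNU5F-1 and 2.70 and 4.23 at RNU7-1. RNU11, the U11 snRNA of the minor spliceosome, had 9.24-fold over background after depletion, 9.19-fold in control cells and 4.28-fold in starvation. RNU2-2, a U2 gene, had 8.08-fold, 8.11-fold and 4.05-fold, and RNU12 3.85-fold, 4.05-fold and 3.07-fold in the same order. These 3 genes were marked in all 3 conditions. At RNU12 the starvation summit lay 606 bp from a gene end, and its peak did not overlap the depletion peak. With a window of 500 bp, 2 of the 3 stayed in both lists. Of the 10 genes of depletion alone, RNU5F-1 had 5.97-fold, RNVU1-7 4.62-fold, RNU5B-1 4.43-fold, and RNU7-1, the U7 snRNA that acts in histone mRNA processing, 4.23-fold. The others were RNU5D-1 (3.66-fold), RNU4-2 (3.46-fold), RNU1-2, RNU4ATAC and RNU5A-1 (3.27-fold each) and RNU5E-1 (3.08-fold), and RNU1-2 was the single one of the 10 with no control peak. At equal list length 6 of the 21 were marked after depletion (28.6%, against 3.85% of all protein-coding genes). Values of the U1, U2, U4 and U5 genes are uncertain, since these have near-identical copies. Of 20 small RNA genes of RNA polymerase III depletion marked 3 (15%; RNY1, RNY3 and RMRP) and starvation 0.

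**Figure D4:**
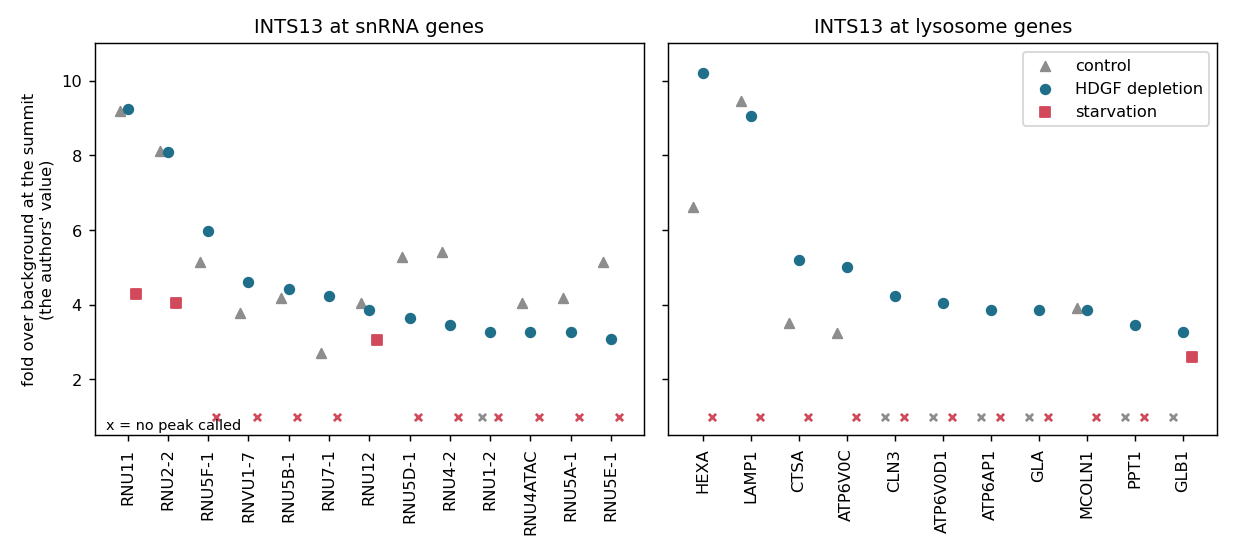
Fold over background at the summit, the authors' value (y axis), of the strongest INTS13 boundary peak at each snRNA gene (left) and lysosomal gene (right) with a peak after depletion or in starvation, in control (grey triangles), HDGF-depleted (blue circles) and starved cells (red squares); crosses mark genes with no peak called. Starvation squares appear for RNU11, RNU2-2 and RNU12 and for GLB1 alone, at 2.61 to 4.28.

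Cytosolic ribosomal protein genes had a depletion peak in 35 of 86 (40.7%, interval 30.2 to 51.8%) and a starvation peak in 4 (4.65%, 1.28 to 11.5%), against 19.1% and 6.71% of all genes. Those of depletion alone included RPL32 (4.62-fold), RPS12 (4.23-fold) and RPL4 (4.04-fold), RPL10 and RPL39 were in both lists, and RPL6 (3.07-fold) and RPL3L (2.49-fold) in starvation alone. Of the 86, 9 remained at equal length (10.5%, against 3.85% of all protein-coding genes), and 16 were marked in control cells. The share thus stayed above that of all genes at equal length, though most of the 35 genes dropped out. Mitochondrial ribosomal protein genes had 27 of 77 (35.1%) and 6 (7.79%), all 6 among the 27, led by MRPL55 (5.58-fold and 4.11-fold). Translation factors were near the background, with 16 of 55 (29.1%, interval 17.6 to 42.9%) and 2 (3.64%), and 1 at equal length. EIF2D, a non-canonical initiation factor, was among the stronger starvation peaks, at 6.02-fold against 3.85-fold after depletion. Aminoacyl-tRNA synthetases, which charge tRNAs, had 16 of 35 (45.7%) and 5 (14.3%), and the 5 of starvation were all in both lists: YARS1 (4.04-fold and 4.46-fold), YARS2 (4.23-fold and 3.82-fold), KARS1 (4.43-fold and 3.70-fold), AARS2 and PARS2. The strongest peaks of YARS1 and PARS2 lay at opposite ends of the gene, and those of MRPL55 did not overlap. Replication-dependent histone genes, another class with special 3′ ends, had 19 of 68 at 13 peaks after depletion and 2 in starvation, H2AC25 and H2BC26 at 1 common peak.

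With the full depletion list, stress-response and metabolic genes were marked above the share of all genes. Their starvation shares could not be told from that of all genes. Of 41 genes of the integrated stress response and glucose starvation, 15 (36.6%) had a depletion peak and 5 (12.2%) a starvation peak, and those 5 were SESN2 (a sestrin that restrains mTORC1; 5.20-fold and 4.57-fold), XBP1 (a factor of the unfolded protein response; 3.85-fold and 4.28-fold), STC2 (4.04-fold and 3.13-fold), DDIT4 (3.46-fold and 2.89-fold) and CEBPB (3.27-fold and 3.18-fold). ATF4, the main transcription factor of this response, had a peak after depletion (4.43-fold) and in control cells (4.05-fold) and none called in starvation. No gene of the list was marked in starvation alone. The strongest peaks of CEBPB lay at opposite ends of the gene, and those of XBP1 and DDIT4 did not overlap. The intervals of the starvation shares, 4.08 to 26.2% for this list, 2.44 to 30.2% for glycolysis, 3.51 to 29.0% for the respiratory chain and 2.78 to 33.6% for AMPK and mTOR genes, all held the 6.71% of all genes. Glycolytic genes had 10 of 26 and 3, with PKM (pyruvate kinase M; 3.66-fold and 4.17-fold) and ALDOA in both and PFKL, the liver-type phosphofructokinase, in starvation alone (3.59-fold) but in both at 2500 bp. The strongest peaks of PKM, and those of ALDOA, lay at opposite ends of the gene. Respiratory chain genes had 12 of 32 and 4, all 4 in both lists, led by UQCRH (5.20-fold and 5.96-fold). AMPK and mTOR genes had 9 of 23 and 3: RPS6KB1 (S6 kinase; 5.39-fold and 3.41-fold), PRKAA2 (a catalytic AMPK subunit; 3.46-fold and 3.47-fold) and TSC2 (3.27-fold and 3.01-fold, at opposite ends of the gene). At equal length 4 of the 41 stress-response genes (9.76%) and 3 of the 32 respiratory chain genes (9.38%) were marked after depletion. So were 0 of the 26 glycolytic genes and 1 of the 23 AMPK and mTOR genes (4.35%), against 3.85% of all protein-coding genes. The excess of these last lists thus depended on weak peaks.

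Among lists of 20 genes or more, starvation came nearest to depletion in the number of members at genes of the transcription machinery, of sterol synthesis and of the immediate early response. Genes of polymerase II pausing and termination had 7 of 37 in each list (18.9%, against 19.1% and 6.71% of all genes), with CPSF2 (a cleavage and polyadenylation factor; 6.16-fold and 4.98-fold), POLR2A (the largest polymerase II subunit; 4.62-fold and 4.92-fold), WDR33 (4.23-fold and 4.74-fold), MEPCE and WDR82 in both. The WDR33 summits lay at the 3′ end of the gene, 614 and 540 bp from it, and at 500 bp neither list marked this gene. NELFCD, a subunit of the pausing factor NELF (3.41-fold), and CPSF1 (3.07-fold) were in starvation alone, and in both lists at 2500 bp. Cholesterol and fatty acid genes had 7 of 25 and 5, with SREBF2, the master transcription factor of sterol synthesis (3.93-fold), and FASN (3.01-fold) in starvation alone and FDPS and INSIG1 among those in both. Immediate early genes had 7 of 34 and 5: JUN (3.85-fold and 3.47-fold), JUND, DUSP1 and BTG2 in both, and SRF (4.11-fold) in starvation alone. Cell cycle genes had 8 of 37 and 5, with CCND3 (5.77-fold and 5.55-fold), CDC25C (5.00-fold and 5.32-fold) and MCM5 in both and CDC25A (3.93-fold) and CCNE1 (3.47-fold) in starvation alone, and the last 2 joined both lists at 2500 bp. Zinc finger and NAB factors had 7 of 22 and 2, MAZ and ZNF592. The starvation intervals of the pausing list (7.96 to 35.2%) and the sterol list (6.83 to 40.7%) lay above the 6.71% of all genes. Those of the immediate early (4.95 to 31.1%), cell cycle (4.54 to 28.8%) and zinc finger lists (1.12 to 29.2%) held it. The depletion intervals of all these lists held the 19.1% of all genes.

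Among the genes of the studied proteins themselves, Integrator subunit genes had 2 of 19 in each list (10.5%, against 19.1% and 6.71% of all genes), with INTS14 in both (3.66-fold and 3.07-fold), INTS5 after depletion (3.85-fold) and INTS1 in starvation (2.61-fold). The HDGF family had 2 of 5 after depletion and 1 of 5 in starvation, too few for a share: HDGF had a depletion peak of 3.85-fold and no starvation peak, and HDGFL3 was in both (3.08-fold and 2.84-fold). The HDGFL3 peaks lay at opposite ends of the gene, and the INTS14 peaks did not overlap. The INTS1 summit was at the 3′ end of the gene, 34149 bp from its start site. The HDGF peak given here was also at the 3′ end, with its summit 171 bp from that end, and is the peak counted for MRPL24. The depletion list also had a peak within 1 kb of the RefSeq promoter's start site of HDGF. Nuclear exosome genes had 5 of 20 after depletion, led by the helicase MTREX (5.58-fold), and 0 in starvation, and cilia genes 4 of 41 and 1 (FBF1). Markers of other tissues, which serve as a measure of peaks at genes not typical of kidney-derived cells, were marked after depletion in 4 of 16 (liver), 3 of 20 (blood), 5 of 17 (muscle) and 3 of 14 (neurons and glia), 15 to 29.4% by list and near the 19.1% of all genes. In starvation the liver, blood and neuron lists had 0, and muscle 3, ACTA1 (4.05-fold), ACTN2 (2.89-fold) and TNNI2 (3.01-fold). A depletion share near 20% in a gene list is thus no more than these tissue markers show.

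**Figure D5:**
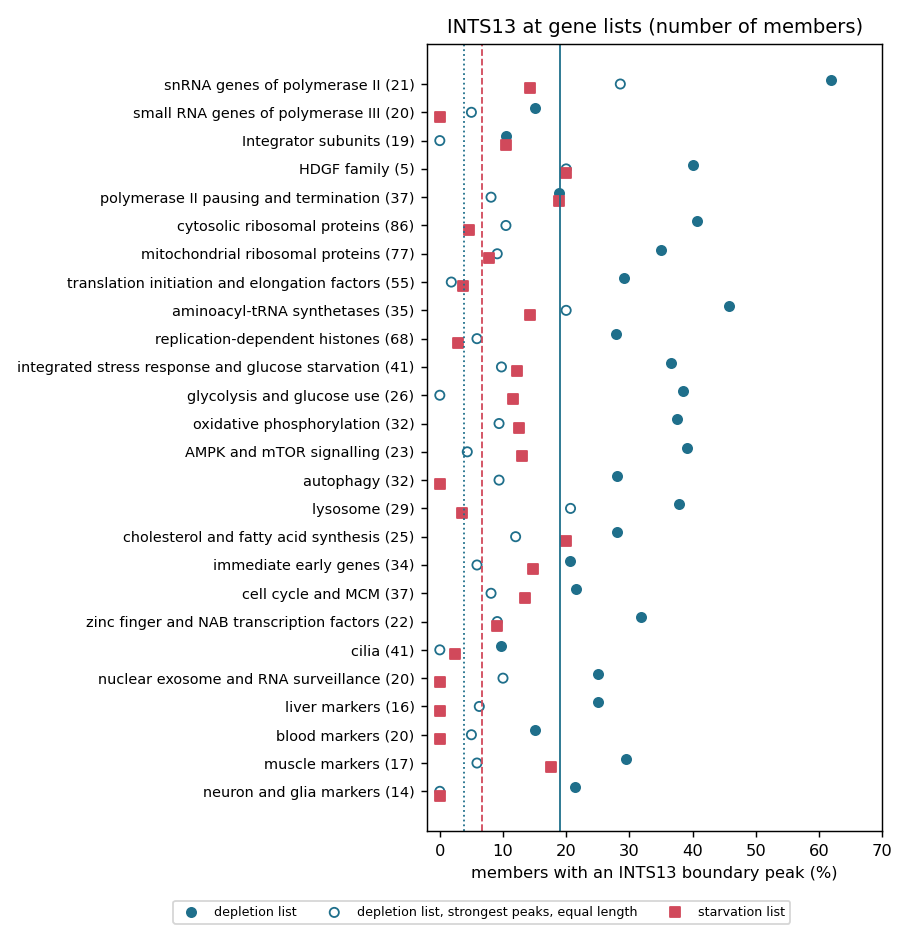
Share of each gene list (y axis, number of genes matched in parentheses) with an INTS13 boundary peak (x axis, %) in the depletion list (filled circles), its strongest peaks cut to the length of the starvation list (open circles) and the starvation list (squares); the solid, dotted and dashed lines are the shares of all protein-coding genes in the same order, 19.1%, 3.85% and 6.71%. The snRNA genes (61.9%), synthetases (45.7%) and ribosomal protein genes (40.7%) are furthest right, and the lysosome list has a high open circle (20.7%) with a low square (3.45%).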

How the data were processed

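Per the labels' protocols, ChIP-seq used paired-end reads of 150 bp. Reads were handled with MACS2, Bowtie, Trimmomatic, FastQC and Picard on build hg38, per the submitters' processing notes. Their versions, and how replicates and inputs entered peak calling, were not given in the sources used here. The deposited peak names hold the value 0.05. The authors deposited, for each peak, an integer score, a fold over background (a ratio), and −log10 p and −log10 q values; the score was not used. Peaks off chromosomes 1 to 22, X and Y were dropped (30 after depletion, 7 in starvation). Background reads were solved from the deposited fold and −log10 p under a Poisson model, with a single value for each list.

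Genes (RefSeq, GRCh38.p14) were assigned each peak whose summit fell no more than 1 kb from their start or end; the strongest by −log10 q is given. Of 20037 protein-coding genes, 15842 (79.1%) had a promoter entry, which gives their start site. The text names, for each class, the 8 genes of highest −log10 q (for both lists, by summed ranks), all marked snRNA, Integrator and HDGF family genes, and up to 4 members of each gene list and class; other members of the lysosome, synthetase, stress and pausing lists are named beyond this rule, after their values were seen. The sites and lists were chosen with earlier results of these data known; 2 list definitions, of translation factors and histones, were narrowed when symbols were matched. Overlaps were tested on simulated data. Python 3.11.15, pandas 2.3.3 and scipy 1.17.1 were used.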

Additional observations from a re-analysis of the deposited data

How the results depend on the processing

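Of 48 alternatives, 15 stayed near the value given and 33 moved. The setting without peaks found in all other lists can remove shared peaks alone, so a lower share there was fixed in advance. No paired analysis was possible because each group has 1 deposited list, and for the same reason no replicate could be left out. The shares of starvation and depletion peaks that were shared were 19.2% and 2.83% with at least 50% of both peaks in common, 31.1% and 4.59% with summits within 250 bp, 47.6% and 16.7% at a −log10 q of at least 5 in both lists, 47.1% and 48.1% at 10, 26.2% and 25.1% with lists of equal length, 35.5% and 3.68% without chromosomes 1, 13, 22 and X, and 38.8% and 4.70% without peaks found in all other lists. Genes in both lists, in depletion alone and in starvation alone numbered 149, 258 and 294 at a −log10 q of at least 5, 19, 32 and 88 at 10, and 372, 399 and 973 with lists of equal length, and in all 3 of these settings starvation alone held more genes than depletion alone; the cause was not tested. Genes in both lists and in depletion alone numbered 577 and 1793 at 500 bp, 1376 and 4868 at 2500 bp, and 548 and 1652 at start sites. Genes in both lists were 466 without the 4 chromosomes and 388 where the peaks themselves overlap. Of the 3 snRNA genes in both lists, 2 remained at 500 bp, 0 at a −log10 q of 10 and 1 without the 4 chromosomes. Start sites gave no snRNA value. At 2500 bp, 255 of 447 starvation-alone genes and 2725 of 2930 depletion-alone genes kept their class. The extended E-box search, and its repeat without the promoters read beforehand, were added after the data were seen.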
